A study of Mus musculus with 2 samples.

Results

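The basic leucine zipper and IRF transcription factors compared here were *Batf*, *Batf3*, *Irf4*, *Irf8*, *Jun*, *Junb*, *Jund*, *Fos*, *Fosl2* and *Maf*, chosen by gene symbol as AP-1 family factors and their IRF partners. The 10 genes were found among 14732 symbols listed for at least 1 of 2 libraries. Both libraries came from CD8+ T cells of OT-I transgenic C57BL/6 mice aged 6 to 8 weeks, taken from spleen and lymph nodes. OT-I cells carry a T cell receptor for the OVA peptide SIINFEKL, so all cells of both conditions met the same antigen. Activation with 2.5 ng/mL of peptide and 10 U/mL of IL-2 lasted 24 h and was followed by retroviral transduction. The vector (RVKM) carried Eomes and human CD2 for Eomes-overexpressing cells, and was empty of Eomes for control cells. Cells with surface human CD2 were sorted after 48 h, plated at 40000 per well and given the same peptide and IL-2 doses for 3 days. Eomes was thus supplied from a viral vector in repeatedly stimulated cultures, and the number of donor mice is not given in the sources used here. Each condition was sequenced as 1 library, so no difference below has a replicate check or a p-value.

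AP-1 factors bind DNA as pairs held together by a leucine zipper. The Jun proteins pair with each other or with Fos proteins, and a Jun-Fos pair acts with NFAT to switch on cytokine genes when the T cell receptor is engaged. BATF and BATF3 also pair with Jun proteins but lack the activation domains of Fos, and BATF-Jun pairs bind together with IRF4 or IRF8 at composite sites. In CD8+ T cells, BATF and IRF4 are known for driving effector expansion and have also been linked to exhaustion, and c-Maf, encoded by *Maf*, is known for inducing *Il10* and several inhibitory receptors.

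The files gave 1 value per gene symbol, headed FPKM and described as RPKM (a read number divided by transcript length and sequencing depth), and the latter name is kept. Genes reaching an RPKM of 1 in either library were counted as expressed, which held for 9925 genes. Log2 ratios are Eomes-overexpressing over control, and 1.5-fold, a log2 ratio of 0.58, was used as a threshold of size. Of the expressed genes, 2.46% were higher and 5.19% were lower by more than 1.5-fold, and the median log2 ratio was -0.0037. The level of *Eomes* itself was 2.47 in control and 129.6 with the *Eomes* vector (log2 ratio 5.71). Sequencing depth was read from the steps between low values, at about 19600000 reads for control and 19200000 for Eomes-overexpressing cells. Each interval is an exact binomial one (Clopper-Pearson, 95%) on reads approximated from RPKM, transcript length and that depth. It holds counting error alone, and so sets 1 library against the other rather than condition against condition.

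All 10 factors had a value in both libraries. *Fos* reached an RPKM of 1 in Eomes-overexpressing cells only, and the other 9 did so in both. *Fosl2* was the 1 factor more than 1.5-fold higher, and 0 of 10 were more than 1.5-fold lower (2.46% and 5.19% of expressed genes). The other 9 had log2 ratios from -0.28 to 0.33, and the median over the 10 was -0.09. By sign, 4 were higher and 6 lower in Eomes-overexpressing OT-I cells. The 5 factors at 100 RPKM or more in both libraries differed by small amounts in both directions, as *Batf*, *Batf3*, *Junb* and *Jund* were 1.11- to 1.22-fold lower and *Irf8* was 1.14-fold higher.

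**Figure D1:**
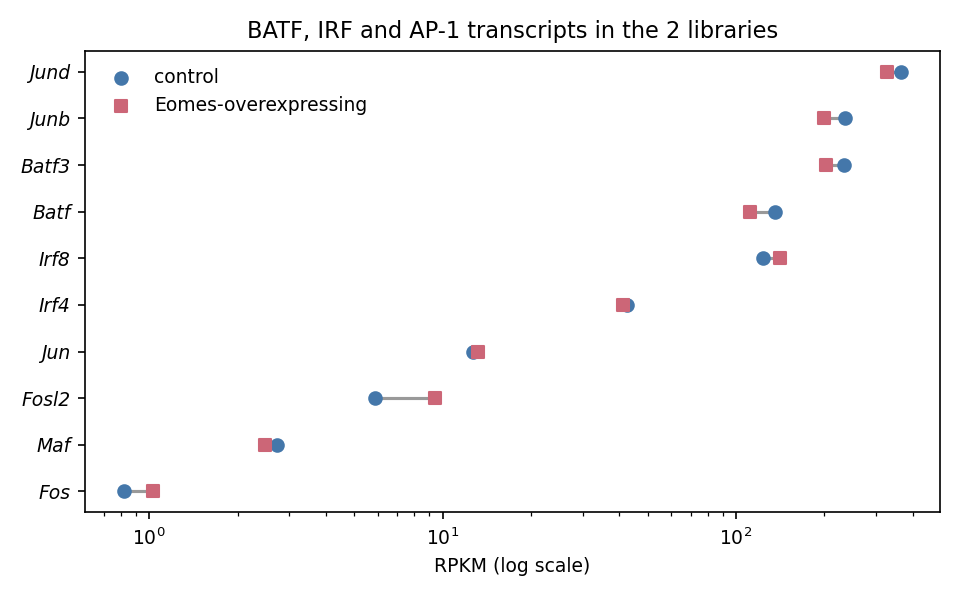
RPKM of the 10 factors on a log axis, with circles for control and squares for Eomes-overexpressing OT-I cells (1 library each). Levels run from 0.82 for *Fos* to 365 for *Jund* in control, and the widest gap between the symbols is that of *Fosl2* (5.87 and 9.42).

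RPKM is scaled to transcript length, so levels of different factors can be set side by side. *Jund* had the highest level in both libraries, ahead of *Junb* and *Batf3*, which changed places between the libraries. *Batf* and *Irf8*, next in order, also changed places, and *Irf4*, *Jun*, *Fosl2*, *Maf* and *Fos* followed in the same order in both. *Junb* and *Batf3* differed in control by less than 1 RPKM (235 and 234), so their order there carries no weight. The lower steps were wide, as *Irf4* stood at 42.6 in control, *Jun* at 12.7, *Fosl2* at 5.87, *Maf* at 2.73 and *Fos* at 0.82.

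*Fosl2* encodes Fra-2, a Fos protein without the strong activation domain of c-Fos. Its gene spans 32135801 to 32157842 of chromosome 5 (mm10, as for all positions here). The level was 5.87 RPKM without and 9.42 RPKM with Eomes overexpression, 1.60-fold higher. The log2 ratio of 0.68 rests on about 752 and 1182 reads, and its interval of 0.55 to 0.82 lies above 0 but reaches below 1.5-fold. Sorted by log2 ratio, largest first, *Fosl2* was at position 170 of the 9925 expressed genes. Of the 3555 genes whose mean RPKM was 5 to 20, 5.09% were past 1.5-fold in either direction and the middle 95% had log2 ratios between -0.69 and 0.50, which leaves *Fosl2* above that span. *Fos*, the immediate-early gene for c-Fos on chromosome 12 from 85473890 to 85477273, was close to the lower limit of expression with an RPKM of 0.82 and 1.03. About 34 and 42 reads give a log2 ratio of 0.33 with an interval of -0.35 to 1.03, so no difference was detectable at this depth.

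**Figure D2:**
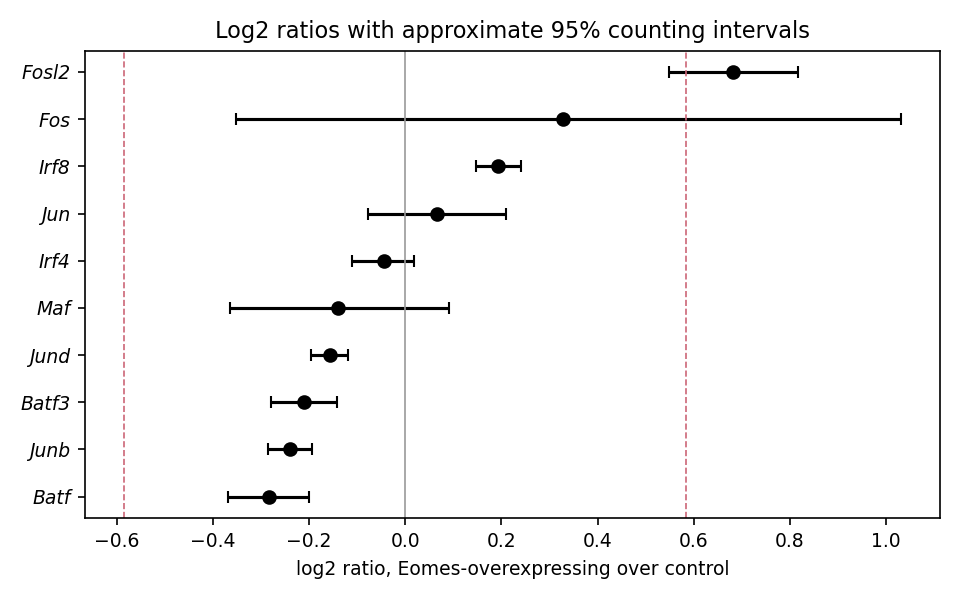
Log2 ratio of each factor (points) with its approximate 95% counting interval (bars), ordered by size. Dashed lines mark 1.5-fold in either direction. *Fosl2* alone lies past a dashed line, and the intervals of *Fos*, *Jun*, *Irf4* and *Maf* span 0.

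The Jun genes each have a single coding exon and encode the partners shared by Fos and BATF proteins. *Jund* (chromosome 8, 70698949 to 70700616) was at 365 RPKM in control and 327 RPKM in Eomes-overexpressing cells. Its log2 ratio was -0.16 (interval -0.20 to -0.12). *Junb* (chromosome 8, 84974484 to 84978718) was at 235 and 199 RPKM, a log2 ratio of -0.24 (interval -0.29 to -0.19). Both were thus slightly lower in Eomes-overexpressing cells by more than counting error. *Jun*, which encodes c-Jun (chromosome 4, 95049034 to 95052222), was at 12.7 and 13.2 RPKM. Its log2 ratio of 0.07 had an interval of -0.08 to 0.21 and did not differ from 0 by more than counting error. Antisense or opposite-strand genes overlap *Jun* (*Junos*), *Jund* (*Gm11175*) and *Junb* (*Prdx2*), and whether the authors counted by strand is not given, so part of these reads may come from the other strand.

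*Batf* and *Batf3* encode small zipper proteins that compete with Fos for Jun. *Batf* (chromosome 12, 85686669 to 85709087) was at 136 RPKM in control and 111 RPKM with Eomes. Its log2 ratio of -0.28 (interval -0.37 to -0.20) was the lowest of the 10 factors. *Batf3* (chromosome 1, 191097847 to 191108945) was at 234 and 202 RPKM, a log2 ratio of -0.21 (interval -0.28 to -0.14). Both differences lay within the middle 95% of the 910 genes with a mean RPKM of 100 or more (-0.45 to 0.31), of which 1.32% were past 1.5-fold.

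The IRF partners leaned the other way or not at all. *Irf8* (chromosome 8, 120736358 to 120756694), a factor best known from dendritic cells and B cells that is also induced in activated CD8+ T cells, was at 123 RPKM in control and 141 RPKM with Eomes. Its log2 ratio was 0.19 (interval 0.15 to 0.24). *Irf4* (chromosome 13, 30749226 to 30766976), whose level follows the strength of T cell receptor signals, was at 42.6 and 41.3 RPKM. Its log2 ratio was -0.05 (interval -0.11 to 0.02), and 2.25% of the 2889 genes with a mean RPKM of 20 to 100 were past 1.5-fold. The difference of *Irf4* was thus within counting error. *Maf* (chromosome 8, 115682942 to 115707794) was at 2.73 and 2.48 RPKM, a log2 ratio of -0.14 (interval -0.37 to 0.09). At this low level 16.9% of 2414 genes (mean RPKM of 1 to 5) were past 1.5-fold, and *Maf* was not. A readthrough gene, *Gm20388*, overlaps *Irf8* on the same strand, and an antisense gene, *Gm15655*, overlaps *Maf*.

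Over the expressed genes, transcripts richer in G and C tended to lower log2 ratios (Spearman's rho -0.44 over 9835 genes, which are not independent replicates). The transcripts of *Batf*, *Batf3*, *Junb* and *Jund* are GC-rich, at 56.6%, 62.8%, 62.6% and 67.1%. Relative to the median of genes with a like GC content, their log2 ratios were -0.19, -0.12, -0.15 and -0.07, respectively, so these differences shrank while keeping their sign. The log2 ratio of *Irf8* was 0.28 and that of *Fosl2* 0.75 after the same step. Those of *Jun* and *Fos* were 0.16 and 0.40. The transcripts of *Irf4* and *Maf* hold less G and C (47.6% and 47.4%), and their log2 ratios became -0.08 and -0.21. After this step *Maf*, not *Batf*, was thus the lowest of the 10 factors.

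**Figure D3:**
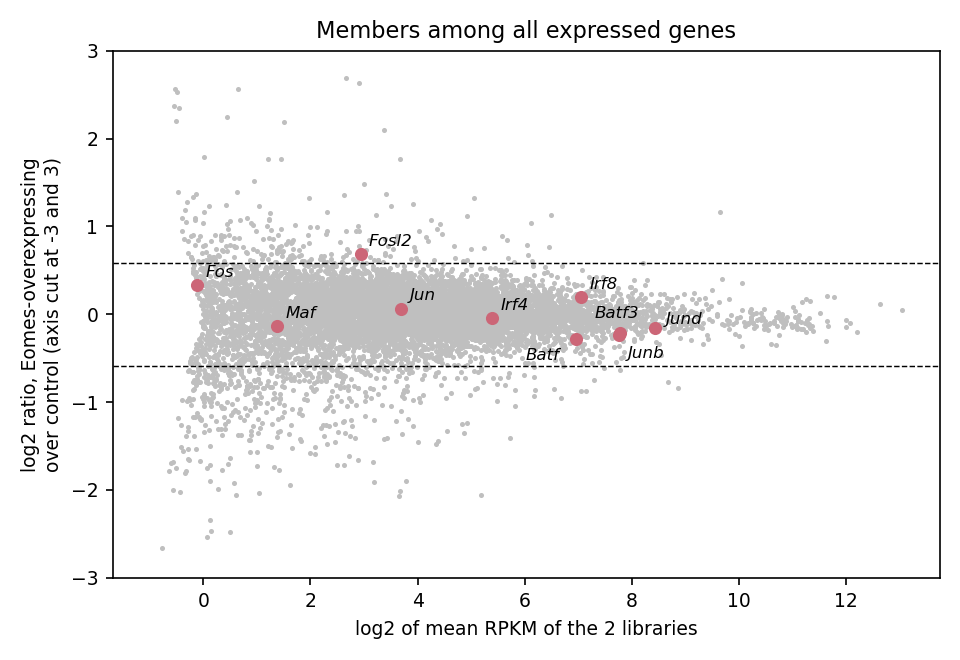
Log2 ratio against the log2 of the mean RPKM for all expressed genes (grey) and the 10 factors (red). Dashed lines mark 1.5-fold. Genes beyond a log2 ratio of 3 in either direction (15 of 9925) are outside the axes. The spread narrows with abundance, and *Fosl2* lies above the upper dashed line.

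Because these factors work as pairs, the summed level of each family was also compared. The 3 Jun genes summed to 612 RPKM without and 539 RPKM with Eomes overexpression, and *Batf* with *Batf3* to 369.7 and 314. *Fos* with *Fosl2* summed to 6.69 and 10.4. Jun transcripts thus outnumbered those of *Fos* and *Fosl2* 91.5 to 1 in control and 51.6 to 1 in Eomes-overexpressing cells, and BATF transcripts did so 55.3 to 1 and 30.02 to 1. The ratio of Jun to BATF transcripts was 1.66 and 1.72. The Fos side was completed with *Fosb* (RPKM 1.06 and 1.46, log2 ratio 0.46) and *Fosl1* (2.03 and 2.17, log2 ratio 0.10), which left Jun transcripts at 62.6 and 38.3 to 1. Protein levels, which set the pairs that form, were not measured in these files.

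Within the families the mix of transcripts was similar in both libraries. *Jund* made up 59.6% and 60.7% of the Jun sum, *Junb* 38.4% and 36.9%, and *Jun* 2.07% and 2.45%. *Batf3* held 63.3% and 64.5% of the BATF sum. *Irf8* held 74.3% and 77.3% of the sum with *Irf4*, the widest shift among the member pairs at 3.04 percentage points. *Fosl2* held 60.0% of the 4 Fos genes in control and 66.9% in Eomes-overexpressing cells. These shares have no replicate error, and depend on the transcript lengths behind RPKM.

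**Figure D4:**
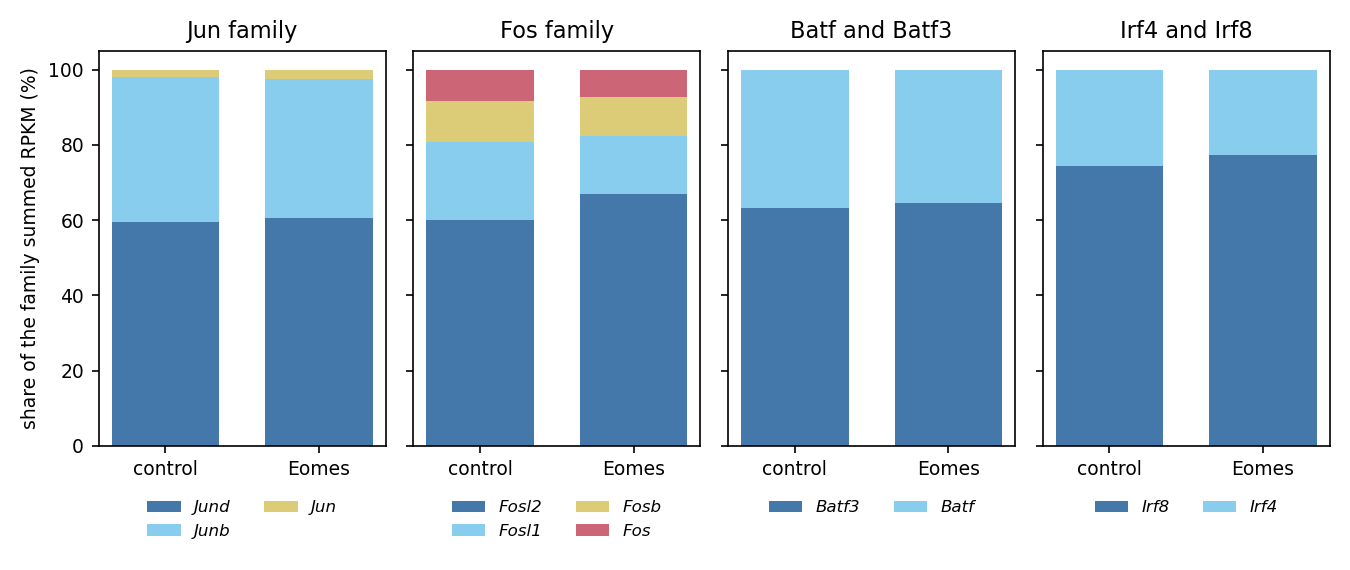
Share of each gene in the summed RPKM of its family (%), for control and Eomes-overexpressing OT-I cells (1 library each). *Jund*, *Fosl2*, *Batf3* and *Irf8* are the largest parts of their families in both libraries.

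The sequence before the transcription start was searched because several of these genes are known to be controlled by AP-1 or IRF factors. RefSeq promoter windows (GRCm38.p6) were matched by symbol for 9 of the 10 genes (all but *Maf*, with 2 windows for *Irf8*), and the 250 bases upstream of the start were searched on both strands. The letters searched were TGANTCA (AP-1, in 6.75% of 32851 windows), TGACNTCA (a longer AP-1 form, 7.49%) and AGGTGTGA (T-box, 1.12%). GAAA repeated after a gap of 2 bases (2.98%) was taken as letters like those of an interferon response element. Composite AP-1-IRF elements were also searched, as TTTC placed 4 bases before TGANTCA (0.0974%) and GAAA directly before TGANTCA (0.10%). The longer AP-1 form was added after the windows had been read, and a composite match always holds the short AP-1 letters. *Jun* held the longer AP-1 form at position -45 from its start. *Fosl2* held the letters like an interferon response element, read on the opposite strand, at position -221 from its RefSeq start. None of the letters was found in the windows of the other 7 genes. RefSeq starts can differ from the gene starts given above. The *Jund* window (70697489 to 70697738) ends well before that start. The *Batf3* window (191098164 to 191098413), the *Fosl2* window (32136222 to 32136471) and the second *Irf8* window (120738389 to 120738638) lie inside their genes. For *Jund*, *Batf3* and *Fosl2* the bases just before the gene start given above were thus not searched. The *Fosl2* window lies within an annotated exon of the gene, so only the bases around the match are shown. The stretches show the match of *Fosl2*, the factor past 1.5-fold, and the whole window of *Jun*. For contrast they show the window of *Batf*, the factor with the lowest log2 ratio before centring by GC content, up to its first annotated exon. Capitals mark the matches, each stretch reads 5′ to 3′ along the gene's strand, and a match is a description of letters, not a bound site.
*Fosl2*, chr5:32136241-32136270, plus strand: accggcagctTTTCTTTTTCgcctttttgg
*Jun*, chr4:95052223-95052472, minus strand: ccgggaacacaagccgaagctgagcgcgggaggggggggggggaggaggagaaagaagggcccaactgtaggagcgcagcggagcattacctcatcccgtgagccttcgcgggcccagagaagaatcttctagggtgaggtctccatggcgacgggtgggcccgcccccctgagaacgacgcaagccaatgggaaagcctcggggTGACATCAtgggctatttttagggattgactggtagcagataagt
*Batf*, chr12:85686470-85686668, plus strand: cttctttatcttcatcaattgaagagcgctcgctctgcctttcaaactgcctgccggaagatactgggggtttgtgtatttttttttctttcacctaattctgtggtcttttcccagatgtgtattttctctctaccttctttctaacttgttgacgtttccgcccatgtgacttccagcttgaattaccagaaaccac

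Other genes of the pathway were compared from fixed lists. Their counts stand beside 2.46% higher and 5.19% lower over all expressed genes. Of 13 other AP-1, ATF, Maf and Bach genes, 10 were expressed, and 1 was more than 1.5-fold higher and 1 lower. *Jdp2*, which encodes a zipper protein that represses AP-1 activity, was at 4.26 and 7.52 RPKM, a log2 ratio of 0.82 (interval 0.52 to 1.14). *Atf3*, a stress-induced factor that pairs with Jun proteins, was at 33.5 and 13.3 RPKM, a log2 ratio of -1.33 (interval -1.48 to -1.18). Among the expressed genes of this list and the 10 factors, *Atf3* had the largest difference. Of 7 other IRF genes, 6 were expressed, 0 were more than 1.5-fold higher and 1 was lower. *Irf1*, an interferon-induced factor, was at 21.6 and 14.1 RPKM, a log2 ratio of -0.62 (interval -0.77 to -0.46), which was -0.56 and within 1.5-fold after centring by GC content. *Irf5* had a log2 ratio of -0.50.

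Among genes that act beside AP-1 or signal to it, none of 9 NFAT and NF-kappaB genes, 11 MAP kinase genes and 7 dual-specificity phosphatase genes, which remove phosphate from MAP kinases, was past 1.5-fold, although all of them were expressed. Their median log2 ratios were -0.03, 0.01 and 0.04. Over all expressed genes 2.46% were higher and 5.19% lower by more than 1.5-fold, so lists this short would hold few such genes. The largest log2 ratios in size were those of *Nfkb2* (-0.43) and *Nfatc1* (-0.25) in the first list, *Map2k6* (-0.36) in the second, and *Dusp10* (-0.50) and *Dusp1* (0.39) in the last.

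Genes with known AP-1 or NFAT-AP-1 sites differed in direction. Of 11 such genes, 7 were expressed, with 1 more than 1.5-fold higher and 2 lower. *Fasl*, which encodes a death receptor ligand, was at 13.8 and 27.1 RPKM (log2 ratio 0.97, interval 0.82 to 1.13). *Il13*, a type 2 cytokine gene, was at 10.3 and 0.59 RPKM (log2 ratio -4.13, interval -4.99 to -3.32), and *Csf2*, which encodes GM-CSF, at 21.6 and 5.80 RPKM (log2 ratio -1.90, interval -2.25 to -1.55). Of 11 genes described as targets of BATF with IRF4, 8 were expressed, with 0 more than 1.5-fold higher and 2 lower. These were the inhibitory receptor gene *Ctla4* (RPKM 134 and 69.4, log2 ratio -0.95) and *Tbx21*, which encodes T-bet (41.0 and 21.6, log2 ratio -0.92). Of 7 genes described as c-Maf targets, 2 of them also in the list before and 1 in the AP-1 list, 5 were expressed and 1, *Havcr2*, was more than 1.5-fold higher (RPKM 40.0 and 62.6, log2 ratio 0.64). Its interval of 0.57 to 0.72 reaches below 1.5-fold, and its log2 ratio was 0.54 after centring by GC content. *Tigit*, another inhibitory receptor gene, had a log2 ratio of -0.56. The median log2 ratios of the 3 target lists were -0.18, -0.28 and -0.49. Over all expressed genes the median was -0.0037, with 2.46% higher and 5.19% lower by more than 1.5-fold.

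**Figure D5:**
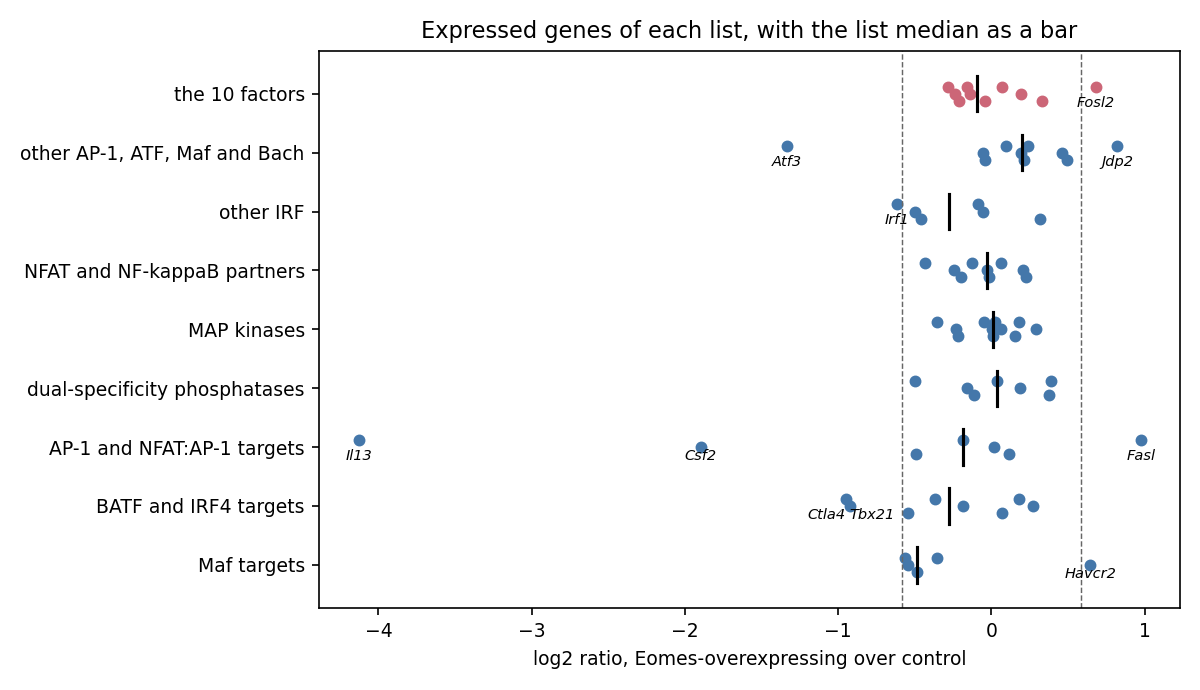
Log2 ratio of each expressed gene of the 10 factors (red) and of 8 other lists (blue), with the list median as a vertical bar, dashed lines at 1.5-fold and names for genes past it. The NFAT, MAP kinase and phosphatase genes lie between the dashed lines, and *Atf3*, *Csf2* and *Il13* lie far to the left.

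*Irf8*, *Batf3* and *Maf* are also high in dendritic cells, B cells or macrophages, so markers of these cells were read in the same libraries. Of 7 dendritic cell markers, *Xcr1* alone reached an RPKM of 1 (1.79 and 1.11), and *Clec9a* and *Cd209a* were not listed. Of 7 B cell markers, *Cd79b* alone did so (2.79 and 1.56), and *Ms4a1* and *Pax5* were not listed. Of 7 macrophage markers, 6 were not listed, and *Cd14* was at 1.39 and 1.12. The summed RPKM of the 3 lists was 2.77, 3.46 and 1.39 in control and 1.93, 1.96 and 1.12 in Eomes-overexpressing cells. *Irf8* and *Batf3* were at 123 to 234 RPKM, but *Maf*, at 2.73 and 2.48, was near the dendritic cell and B cell sums. Of 5 markers of CD4+ T and NK cells, *Zbtb7b* was at 13.8 and 11.6 and *Klrb1c* at 0.31 and 5.74. *Cd4* was at 0.03 and 0.08, *Foxp3* at 0.09 and 0.07, and *Ncr1* was not listed. Genes that were not listed entered these sums as 0, although a missing entry need not mean a missing transcript, since *Trac*, a constant region gene of the T cell receptor, was not listed either. The other 9 of 10 CD8+ T cell markers were listed, the lowest value being 99.1 RPKM (*Cd8a* with Eomes). All 9 were lower in Eomes-overexpressing cells (median log2 ratio -0.25, against -0.0037 over all expressed genes), with *Cd8a* (-0.88) and *Cd2* (-0.64) past 1.5-fold. After centring by GC content *Zap70* was at 0.035, *Thy1* at -0.018 and *Lck* at -0.033. The others stayed lower, with *Cd8a* (-0.95) and *Cd2* (-0.60) still past 1.5-fold. Whether the mix of cells had a part in the differences of the 10 factors was not tested. In bulk RNA, fewer cells with a transcript and less of it per cell cannot be told apart.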

How the data were processed

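Total RNA of restimulated OT-I cells was sequenced as 1 library per condition on an Illumina HiSeq instrument. The authors filtered reads with SOAPnuke, mapped them to mm10 with HISAT and Bowtie2 and computed expression with RSEM; they deposited FPKM values (RPKM in their methods) with 2 decimals, listed from 0.01 upward. No normalization between libraries is named. Date-like symbols, 20 of control and 19 of Eomes, were dropped.

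For log2 ratios, absent genes took the value 0.01. Software was pandas (2.3.3) with numpy (2.4.6), scipy (1.17.1) and matplotlib (3.10.9) under Python (3.11.15). The genes and lists were chosen with earlier results of these data known. Named genes were all 10 factors and, of each other list, the expressed genes past 1.5-fold or, with fewer than 2 of these, the 2 with the largest absolute log2 ratio. The result of 1 gene that this rule names is not reported here. *Fosb* and *Fosl1* completed the Fos family, and cell markers were named after their values were seen. Lengths, GC content and positions came from GENCODE vM21 (mm10), using the longest protein-coding transcript with a RefSeq match where there was one; 99.1% of expressed genes had a GC content. Of the 50-base stretches of these transcripts, 0% occur in transcripts of other genes for 9 factors and 0.49% for *Maf*.

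Depth was the value at which low RPKM of 97 and 108 genes with 1 transcript under 1200 bases fell most often on whole reads (47.4% and 43.5% within 0.02 reads plus rounding, against 18.5% from rounding alone). Approximated reads are therefore less certain than counts. The intervals were added after the data were seen. The steps were tested on simulated data. Alternatives were a pseudocount of 0.1 or 1, TPM, median, trimmed-mean or GC scaling (20 bins), no minimum RPKM or 5, a 2-fold threshold, and shares of reads in place of RPKM.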

Additional observations from a re-analysis of the deposited data

How the results depend on the processing

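No paired analysis was possible because each condition has 1 library. Under 6 other scalings or pseudocounts 0 of 60 log2 ratios of the 10 factors changed sign, and that of *Fosl2* ranged from 0.60 to 0.75. A pseudocount cannot change a sign, and the TPM, median and trimmed-mean shifts (-0.032, -0.0037 and -0.0001) were smaller in size than the log2 ratio of every factor. Only GC centring could have changed a sign. It moved the log2 ratios of *Batf*, *Batf3*, *Junb*, *Jund* and *Irf8* out of their counting intervals. With a 2-fold threshold 0 factors were higher, and 0 were when the whole counting interval had to lie past 1.5-fold, a rule added after the data were seen. In the other 18 comparisons the number of factors past the threshold was the same, and their median log2 ratio lay between -0.10 and -0.06. The shares of expressed genes higher and lower were 1.19% and 2.87% with a pseudocount of 1, 9.2% and 14.2% without a minimum RPKM, 1.26% and 2.83% with a minimum of 5, and 0.695% and 1.76% at 2-fold. Among the other lists, *Irf1* was no longer past 1.5-fold with a pseudocount of 1 or GC centring (0 lower). With GC centring 0 c-Maf targets were higher and 1 lower, and 3 AP-1 targets and 3 BATF and IRF4 targets were lower. Without a minimum RPKM the numbers lower were 2 other AP-1 genes, 2 other IRF genes, 5 AP-1 targets, 3 BATF and IRF4 targets and 1 c-Maf target. At 2-fold, 0 other AP-1 genes, AP-1 targets and c-Maf targets were higher and 0 other IRF genes and BATF and IRF4 targets lower.

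As shares of reads, which are not scaled to length, *Jun*, *Junb* and *Jund* held 3.76%, 39.6% and 56.7% of the Jun sum in control and 4.45%, 37.96% and 57.6% in Eomes-overexpressing cells. *Fos* and *Fosl2* held 4.31% and 95.7% of their sum in control and 3.41% and 96.6% in Eomes-overexpressing cells. *Batf* and *Batf3* held 40.9% and 59.1%, and 39.7% and 60.3%. *Irf4* and *Irf8* held 36.7% and 63.3%, and 32.9% and 67.1%. The largest gene of each of these families was the same by either measure. Among the 4 Fos genes, *Fosl1* was above *Fosb* by RPKM (20.8% and 10.8% in control, 15.4% and 10.4% with Eomes) and below it by reads (7.9% and 8.37%, 5.52% and 7.53%). With 1 library per condition, differences between cultures cannot be told apart from those due to Eomes.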
